A study of Mus musculus with 4 samples.

Results

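The genes that copy DNA in S phase were followed in satellite cells, which repair skeletal muscle, from aged and young mice. The set holds 46 genes chosen by name. They take part in passing from G1 into S phase, licensing replication origins, running the replication fork and supplying nucleotides. The rule for the set uses no measured value, but earlier results of these data were known when it was chosen. Of the 46 genes, 45 had at least 1 probe set annotated to them alone on the Affymetrix array, out of 18193 genes with a value. These 45 rest on 106 probe sets. Chaf1a had none. No filter on low values was applied, so all 45 were described and tested. The aged group holds 2 independent pools from C57BL/6 mice of 20 to 25 months, and the young group 2 such pools from C57BL/6 mice of 3 to 6 months (the labels give the strain as C57BL/6J). Cells were taken directly from hindlimb muscle and sorted by flow cytometry for syndecan-4 on their surface. The labels name no transgene or drug, and every pool was hybridised to an array of its own. A pool joined 4 to 8 mice by the series text or 6 to 8 by the sample text, so the spread between mice is not seen. Per its title, the study concerns p38 signalling and the self-renewal that muscle stem cells lose with age.

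Replication begins at origins that the origin recognition complex marks in G1. Cdc6 and Cdt1 then load the Mcm2 to Mcm7 ring there, and the ring becomes an active helicase once Cdc45 and the GINS complex join it. D-type and E-type cyclins with their kinases free the E2F factors from the RB family, and E2F factors raise the transcription of many genes of this set in dividing cells. Satellite cells of uninjured adult muscle are mostly quiescent, and most of these genes are low in cells that do not cycle.

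No replication gene passed the threshold of an adjusted p under 0.05, and most had higher values in aged cells. With limma and Benjamini-Hochberg adjustment over all genes, 0 of the 45 passed, against 0% of all genes, and the smallest adjusted p among them was 0.342. At an unadjusted p under 0.05 there were 3 members higher in aged cells, Cdt1, Rfc4 and Prim2, where 2.85% of all genes were, and 1 lower, E2f2, where 6.19% of all genes were. The aged minus young difference was above 0 in 32 of 45 members, or 71.1%, against 53.8% of all genes. It was below 0 in 13, against 46.2% of all genes. The median difference over members was 0.36 on the log2 scale, with quartiles of -0.03 and 0.86, beside a median of 0.05 over all genes. Both aged pools lay above both young pools in 15 members (19.9% of all genes) and below them in 5 (16.9% of all genes). Differences above 1 on the log2 scale were seen in 7 members (5.15% of all genes) and below -1 in 1 member (9.44% of all genes). With 2 pools per age, an exact permutation test of 1 gene cannot give a two-sided p below 0.333. In bulk RNA, fewer cells that express a gene and less of its RNA per cell cannot be told apart.

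Values are relative to the median of each probe set over the 4 arrays, so they give differences between pools and no level, and no gene here can be called abundant or absent. They are taken as log2, a base the sources used here do not state. The set's mean was 0.27 in aged 1 and 0.17 in aged 2, against -0.13 in young 1 and -0.16 in young 2. The highest of the 4 values lay in aged 1 for 16 members (24.2% of all genes) and in aged 2 for 14 (29.2% of all genes). The lowest lay in young 1 for 15 (31.2% of all genes) and in young 2 for 16 (22.2% of all genes). The 2 aged pools differed from each other by a median of 0.58 over members and the 2 young pools by 0.47, beside a median absolute difference between ages of 0.61. In 27 of the 45 members the gap between pools of an age, aged or young, was larger than the difference between ages. That count was not taken over all genes. Their median gaps were 0.48 (aged) and 0.46 (young), beside a median absolute difference between ages of 0.37.

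**Figure D1:**
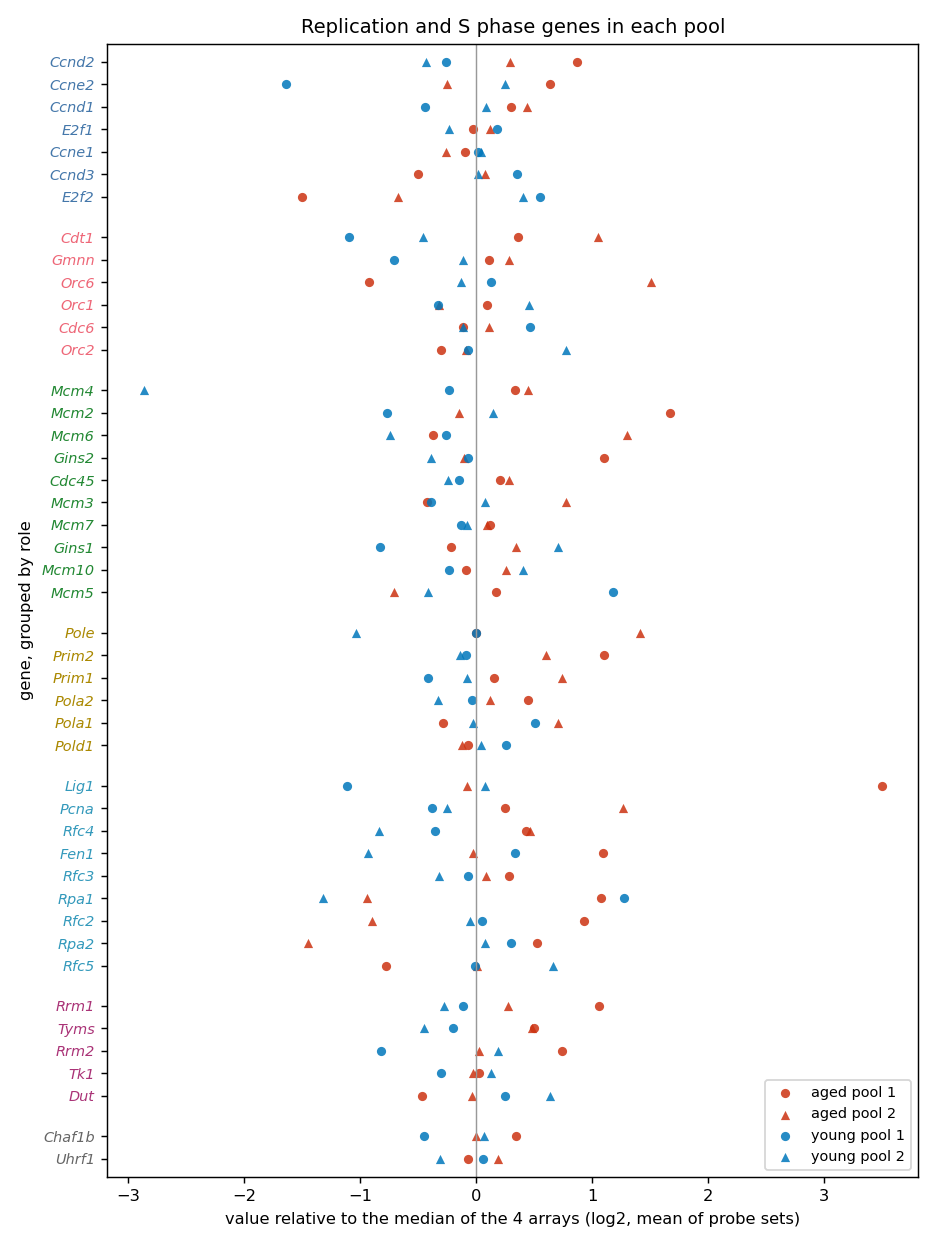
Value of each replication gene in each pool, relative to the median of the 4 arrays on the log2 scale (x axis), with genes grouped by role down the page; red marks are the aged pools and blue marks the young pools. Both red marks lie right of both blue marks for 15 genes, and single pools stand far out for Lig1 (aged 1 at 3.50) and Mcm4 (young 2 at -2.86).

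E2F letters were searched in the promoters of members, and of the genes with a match the 4 with the smallest p-values are printed because they stood on both sides of 0. They were chosen after their values were seen. RefSeq windows (GRCm38.p6, 250 bases before to 50 after an annotated start) were at hand for 36 of the 46 genes, in 44 windows. The letters TTTCGCGC, TTTGGCGC, TTTCCCGC and TTTGCCGC were searched on both strands, where matches may overlap each other. At least 1 match was found in 13 of the 36 genes, or 36.1%, against 3.81% of the 14452 genes with an array value and a window, and 2.26% of all 32851 windows. The CCAAT letters, searched likewise, were found in 22 of the 36 genes, or 61.1%, against 42.0% of the genes with an array value. Capitals mark the E2F letters, read 5′ to 3′ along the gene. The Lig1 window is 1 of 3 for that gene, and the E2f2 window 1 of 2.
E2f2, chr4:136172024-136172323, plus strand: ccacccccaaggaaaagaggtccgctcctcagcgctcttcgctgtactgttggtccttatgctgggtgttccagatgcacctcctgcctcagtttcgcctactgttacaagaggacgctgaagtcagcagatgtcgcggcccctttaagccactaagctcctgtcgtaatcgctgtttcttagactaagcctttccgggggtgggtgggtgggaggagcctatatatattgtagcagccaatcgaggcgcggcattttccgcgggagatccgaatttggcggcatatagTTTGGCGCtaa
Cdt1, chr8:122567765-122568064, plus strand: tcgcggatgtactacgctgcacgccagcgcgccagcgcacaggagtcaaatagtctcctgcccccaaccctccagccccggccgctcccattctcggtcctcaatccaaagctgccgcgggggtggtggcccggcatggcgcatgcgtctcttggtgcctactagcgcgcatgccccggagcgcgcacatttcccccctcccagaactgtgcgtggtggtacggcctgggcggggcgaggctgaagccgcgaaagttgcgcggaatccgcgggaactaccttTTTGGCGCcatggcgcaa
Lig1, chr7:13278576-13278875, plus strand: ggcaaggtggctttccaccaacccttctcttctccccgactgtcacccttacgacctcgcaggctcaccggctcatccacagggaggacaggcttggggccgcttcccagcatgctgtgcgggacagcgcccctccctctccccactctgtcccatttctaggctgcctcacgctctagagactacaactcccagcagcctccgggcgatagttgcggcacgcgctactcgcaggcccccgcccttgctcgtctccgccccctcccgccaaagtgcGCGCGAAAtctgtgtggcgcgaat
Mcm6, chr1:128359656-128359955, minus strand: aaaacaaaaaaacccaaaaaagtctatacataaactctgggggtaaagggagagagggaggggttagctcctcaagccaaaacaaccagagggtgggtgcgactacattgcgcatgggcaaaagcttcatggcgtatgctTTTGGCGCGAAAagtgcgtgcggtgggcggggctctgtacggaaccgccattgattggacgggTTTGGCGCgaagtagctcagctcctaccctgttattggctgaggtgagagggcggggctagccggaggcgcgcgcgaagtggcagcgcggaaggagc
E2f2 and Cdt1 hold the same 8 letters on the same strand, at bases 290 and 283 of their windows. E2f2 had the lowest difference of the set, and Cdt1 was among those above 1. Mcm6 holds 3 matches, of which 2 overlap on opposite strands, and Lig1 holds 1 on the opposite strand. Of the 13 genes with a match, 7 were higher in aged cells, with a median difference of 0.19 and a range from -1.56 to 2.23. Of the 22 genes with a window, a value and no match, 15 were higher, with a median of 0.33. A match describes letters only, and no binding was measured.

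Among the regulators of S phase entry, E2f2 stood lower and the D-type cyclins Ccnd2 and Ccnd1 higher in aged cells. E2f2, an activating E2F transcription factor, had values of -1.50 and -0.68 in the aged pools, against 0.55 and 0.40 in the young pools. The ages did not overlap, and the difference was -1.56 ± 0.43 (standard error of the limma fit, n = 2 pools per age; 2.96-fold lower; unadjusted p = 0.0128, adjusted p = 0.342). The E2f2 probe sets, 2 in number, stood at -2.37 and -0.76, and the ages overlapped in the probe set with the smaller difference. E2f1, the other activating E2F of the set, stood at -0.02 and 0.12 in aged pools, against 0.18 and -0.23 in young pools, with a difference of 0.07 ± 0.38. The E2f1 values of the ages were interleaved, and its 3 probe sets stood between 0.05 and 0.10.

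Ccnd2, the D-type cyclin that links growth signals to Cdk4 and Cdk6, had values of 0.87 and 0.29 in aged pools, against -0.26 and -0.44 in young pools. The ages did not overlap, and the difference was 0.93 ± 0.40 (1.91-fold, adjusted p = 0.591 with limma). Of its 7 probe sets 6 were higher in aged cells, 3 of them by 1.52 to 1.79, and 1 was lower by 1.05 (a difference of -1.05). Ccnd1, which partners the same kinases, stood at 0.30 and 0.44 in aged pools, against -0.44 and 0.09 in young pools, and all 3 of its probe sets were higher (0.55 ± 0.39). Ccnd3, the D-type cyclin known from differentiating muscle, stood at -0.50 and 0.08 in aged pools, against 0.36 and 0.01 in young pools. Its mean of -0.40 ± 0.41 came from probe sets that disagreed, at -1.95, 0.37 and 0.40. The probe set of Ccnd3 at -1.95 had values of -1.60 and -0.63 in aged pools, against 1.05 and 0.63 in young pools, with no overlap.

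The E-type cyclins, which drive Cdk2 at the start of S phase, gave no common direction. Ccne2 had values of 0.64 and -0.25 in aged pools, against -1.64 and 0.25 in young pools, so its difference of 0.90 ± 0.72 rested on a low young 1 and was -0.05 without that pool. Ccne1 differed by -0.21 ± 0.36. Of the 7 genes of this role 4 were higher in aged cells (53.8% of all genes), with a median difference of 0.07. The ages did not overlap in 2 higher genes, Ccnd2 and Ccnd1 (19.9% of all genes), and in 2 lower genes, E2f2 and Ccne1 (16.9% of all genes).

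In origin licensing, the loader Cdt1 and its inhibitor geminin were both higher in aged cells, while the origin recognition subunits gave no common direction. Cdt1 had values of 0.36 and 1.05 in aged pools, against -1.10 and -0.45 in young pools. The ages did not overlap, and the difference was 1.48 ± 0.45 (2.79-fold; unadjusted p = 0.0190, adjusted p = 0.397 with limma). All 3 Cdt1 probe sets were higher, by 1.96, 2.11 and 0.37, and without 1 pool the gene's difference ran from 1.14 to 1.83. Gmnn, which encodes geminin, stood at 0.11 and 0.28 in aged pools, against -0.71 and -0.11 in young pools (0.61 ± 0.40), again without overlap.

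Cdc6, the ATPase that loads the helicase together with Cdt1, differed by -0.18 ± 0.40 with overlapping ages. Of the origin recognition subunits, Orc1 differed by -0.18 ± 0.44, Orc2 by -0.55 ± 0.44 and Orc6 by 0.29 ± 0.81. The ages overlapped in Orc1. In Orc2 both aged pools lay below both young pools, but its 3 probe sets disagreed, at -0.79, 0.62 and -1.47. The Orc6 values of the aged pools, -0.92 and 1.51, lay on both sides of the young pools at 0.13 and -0.13. The licensing role thus held 3 higher (53.8% of all genes) and 3 lower genes (46.2% of all genes), with a median of 0.06.

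Subunits of the replicative helicase were mostly higher in aged cells, but the 3 largest differences each depended on 1 pool. Mcm4 stood at 0.34 and 0.45 in aged pools, against -0.23 and -2.86 in young pools, a difference of 1.94 ± 0.87 (3.84-fold, adjusted p = 0.612 with limma). Aged and young pools were apart, yet young 2 stood far below the others and the difference was 0.62 without it. Mcm2 stood at 1.68 and -0.14 in aged pools, against -0.77 and 0.14 in young pools (1.08 ± 0.71, and 0.17 without aged 1). Mcm6 stood at -0.38 and 1.30 in aged pools, against -0.26 and -0.74 in young pools (0.96 ± 0.63, and 0.12 without aged 2). The pool whose absence lowered the value most was a different one for each of these 3 subunits of the same ring.

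The remaining ring subunits showed smaller or opposite differences. Mcm7 stood at 0.12 and 0.09 in aged pools, against -0.13 and -0.08 in young pools, a difference of 0.21 ± 0.35 with ages apart. Mcm3 stood at -0.43 and 0.77 in aged pools, against -0.39 and 0.08 in young pools (0.33 ± 0.52), and all 5 of its probe sets were higher. Mcm5 stood at 0.17 and -0.70 in aged pools, against 1.18 and -0.42 in young pools (-0.65 ± 0.65). The lower Mcm5 value came from 1 probe set at -2.02, while its other probe sets stood at 0.03 and 0.04. Of the factors that join the ring, Gins2 differed by 0.73 ± 0.51, Cdc45 by 0.44 ± 0.36 with ages apart, and Gins1 by 0.12 ± 0.60. The Cdc45 difference came from 1 probe set at 0.88, while its other probe set stood at -6e-08 with overlapping ages. Mcm10, which helps the assembled helicase start, differed by -0.00189 ± 0.42. In all, 8 of the 10 helicase genes were higher (53.8% of all genes), with a median of 0.39.

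**Figure D2:**
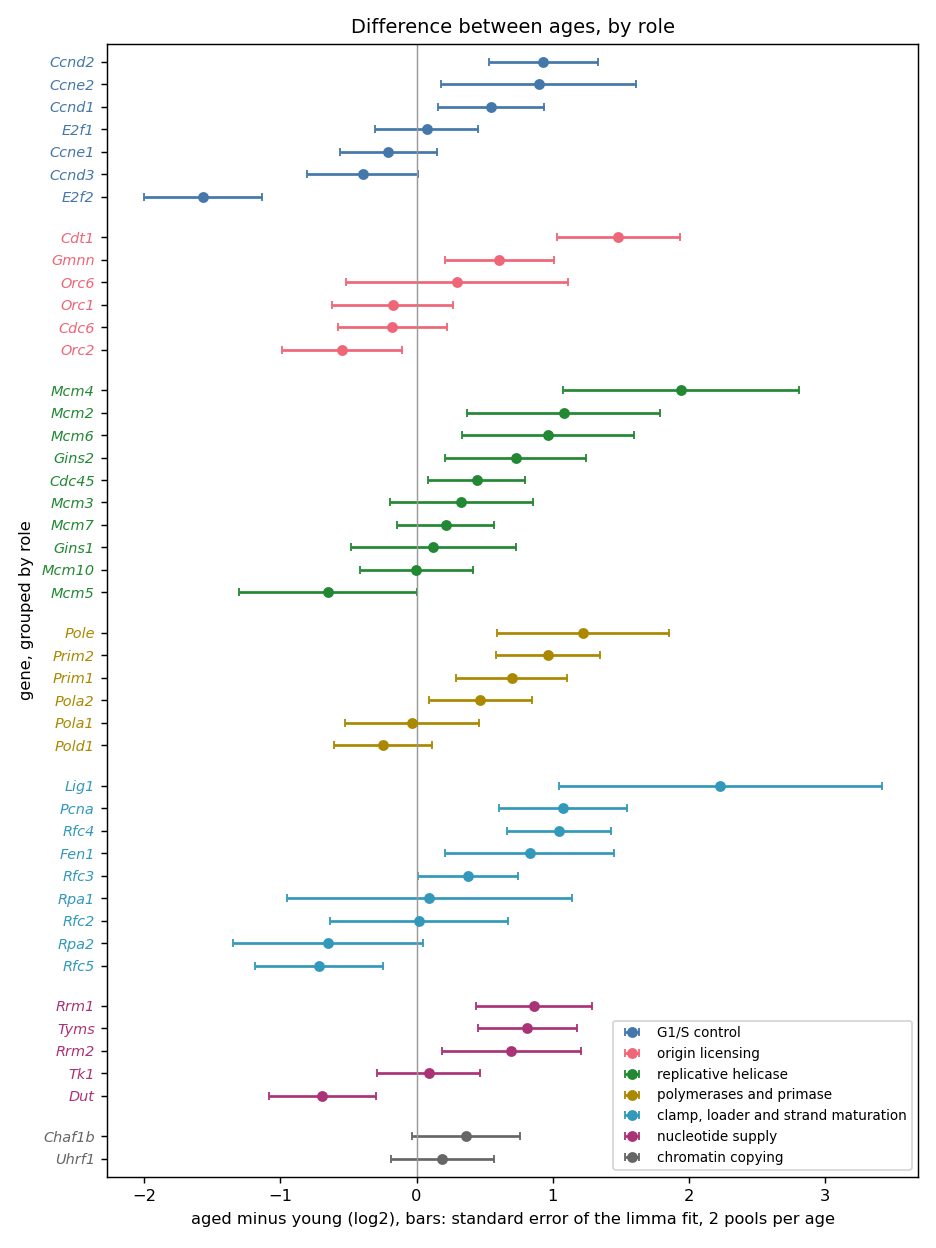
Aged minus young difference of each gene on the log2 scale (x axis), with genes ordered within roles down the page; points are the limma estimates and bars their standard errors (2 pools per age). The estimates run from -1.56 for E2f2 to 2.23 for Lig1. At an unadjusted p under 0.05 with limma, 3 of the 45 were higher (2.85% of all genes) and 1 lower (6.19% of all genes).

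Both primase subunits were higher in aged cells, while the catalytic subunits of the polymerases differed among themselves. Prim2, the large subunit of the primase that lays RNA primers, had values of 1.10 and 0.60 in aged pools, against -0.09 and -0.14 in young pools. Without overlap of the ages, the difference was 0.96 ± 0.38 (1.95-fold; unadjusted p = 0.0491, adjusted p = 0.549 with limma), and all 3 probe sets were higher. Prim1, the small catalytic subunit, stood at 0.16 and 0.74 in aged pools, against -0.42 and -0.08 in young pools (0.70 ± 0.41). Pola2, the accessory subunit of the polymerase that carries primase, differed by 0.47 ± 0.38 with ages apart. Its catalytic partner Pola1 differed by -0.03 ± 0.49, from probe sets at -0.85 and 0.79.

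Pole, the catalytic subunit of the leading strand polymerase, stood at 0.00 and 1.41 in aged pools, against 0.00 and -1.04 in young pools. Aged 1 and young 1 are listed at the same value, and the difference of 1.22 ± 0.63 was 0.52 without aged 2. Pold1, the catalytic subunit of the lagging strand polymerase, differed by -0.25 ± 0.36, with both aged pools below both young pools. Of these 6 genes 4 were higher (53.8% of all genes), with a median of 0.58.

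At the sliding clamp and its loader, Pcna and Rfc4 were higher in aged cells and Rfc5 lower. Rfc4, a subunit of the clamp loader, had values of 0.43 and 0.47 in aged pools, against -0.35 and -0.84 in young pools. In this mean of 2 probe sets both aged pools lay above both young pools. The difference was 1.05 ± 0.38 (2.06-fold, unadjusted p = 0.0370, adjusted p = 0.491 with limma). The 2 probe sets differed by 0.48 and 1.61, and in each of them taken singly the ages overlapped. Pcna, the clamp that holds polymerases on DNA, stood at 0.25 and 1.27 in aged pools, against -0.38 and -0.25 in young pools (1.08 ± 0.47, adjusted p = 0.596). Pcna rests on 1 probe set, and its difference was 0.57 without aged 2. Rfc5 stood at -0.78 and 0.01 in aged pools, against -0.01 and 0.67 in young pools (-0.72 ± 0.47). Rfc3 differed by 0.38 ± 0.37 and Rfc2 by 0.02 ± 0.65, so the loader's measured subunits did not share a direction.

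Lig1, the ligase that seals Okazaki fragments, had the highest difference of the set and the least even pools. It stood at 3.50 and -0.08 in aged pools, against -1.11 and 0.08 in young pools, on 1 probe set. The difference of 2.23 ± 1.18 had an adjusted p of 0.697 with limma and was 0.44 without aged 1. Fen1, the nuclease that trims flaps before ligation, differed by 0.83 ± 0.62, with aged pools at 1.10 and -0.03 and young pools at 0.34 and -0.93. Rpa1, a subunit of the single-strand binding protein RPA, was high in both pools numbered 1 and low in both pools numbered 2. It stood at 1.08 and -0.94 in aged pools, against 1.27 and -1.32 in young pools, and Rpa2 differed by -0.65 ± 0.69. Of the 9 clamp, loader and strand maturation genes 7 were higher (53.8% of all genes), with a median of 0.38.

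The set's genes of nucleotide supply were higher in aged cells in 4 of 5 cases (53.8% of all genes), with a median of 0.70. Tyms, which makes thymidylate, had values of 0.50 and 0.48 in aged pools, against -0.20 and -0.45 in young pools. There was no overlap of ages, and all 4 probe sets were higher, by 0.03 to 1.96. The Tyms difference of 0.81 ± 0.36 (1.76-fold, adjusted p = 0.610 with limma) stayed between 0.69 and 0.94 without any 1 pool. Rrm1, the large subunit of ribonucleotide reductase, stood at 1.06 and 0.28 in aged pools, against -0.11 and -0.27 in young pools (0.86 ± 0.43), with ages apart. Rrm2, the small subunit whose level limits the enzyme in S phase, stood at 0.74 and 0.03 in aged pools, against -0.82 and 0.19 in young pools (0.70 ± 0.51), with overlap. Tk1, the thymidine kinase of S phase, differed by 0.09 ± 0.38. Dut, which removes dUTP, was the exception in the set at -0.69 ± 0.39. It stood at -0.47 and -0.03 in aged pools, against 0.25 and 0.64 in young pools. The 2 Dut probe sets stood at -1.32 and -0.06, and the ages overlapped in the one at -0.06. Outside the set, the nucleotide supply genes Dck (-1.44 ± 0.62), Rrm2b (-1.33 ± 0.36), Tk2 (-0.83 ± 0.86) and Dtymk (-0.31 ± 0.56) were below 0. The ages overlapped in Dtymk and in Tk2, where young 1 stood at 2.14 and young 2 at -0.49. Dck, Tk2 and Dtymk were named after their values were seen.

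Both measured genes that copy chromatin behind the fork had small positive differences. Chaf1b, a subunit of the histone chaperone CAF-1, differed by 0.36 ± 0.40 and Uhrf1, which brings DNA methylation to new strands, by 0.19 ± 0.38, each with overlapping ages.

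Probe sets of a gene often disagreed. Of the 36 members with more than 1 probe set, 18 had all of them higher in aged cells, 6 had all of them lower and 12 had both signs. The 12 include Cdc45, whose lower probe set was at -6e-08. Taken singly, 79 of the 106 probe sets were higher, or 74.5%, against 52.7% of all probe sets with 1 gene symbol. The widest spreads were those of Ccnd2, Ccnd3, Mcm4, Mcm5 and Orc2, whose highest and lowest probe sets lay 2.06 to 2.84 apart.

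**Figure D3:**
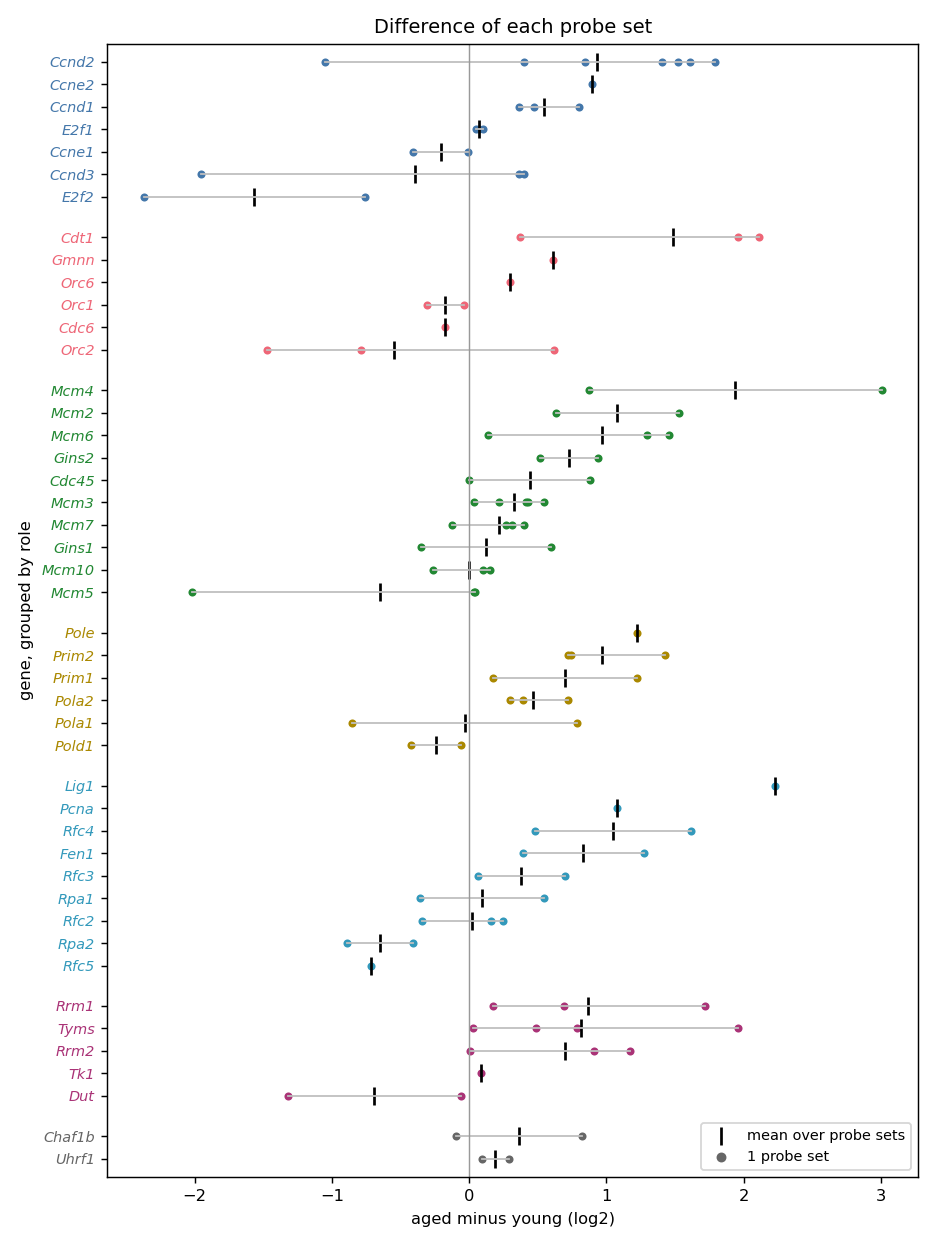
Aged minus young difference on the log2 scale (x axis) of every probe set of each gene; dots are probe sets, black ticks the mean used as the gene's value, and grey lines the range. In 12 genes the dots lie on both sides of 0, counting Cdc45, where 1 dot is at -6e-08.

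Among the other replication genes listed, which also cover nucleotide supply, chromatin copying and checkpoints, 16 of 46 were higher in aged cells. That is 34.8%, against 53.8% of all genes. Of these 46 measured genes named for this purpose (47 listed), 30 were lower, with a median difference of -0.31. None had an adjusted p under 0.05 with limma. At an unadjusted p under 0.05 there were 5 lower, Rpa3, Rrm2b, Hus1, Wdhd1 and Gins4 (6.19% of all genes), and 1 higher, Orc4 (2.85% of all genes). Wdhd1 and Gins4 were picked out once the values were known. Over both lists together, 48 of 91 genes were higher, or 52.7%, near the 53.8% of all genes, and the median was 0.06. The difference between the lists was not tested.

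Subunits of a complex did not all share a sign, within either list. Rpa3, the smallest RPA subunit, had values of -1.09 and -1.15 in aged pools, against 1.09 and 1.47 in young pools (-2.40 ± 0.37, adjusted p = 0.150 with limma), while the ages overlapped in Rpa1 (0.09 ± 1.05) and in Rpa2, which was also below 0. Rrm2b, the reductase subunit used outside S phase and after DNA damage, stood at -0.93 and -0.89 in aged pools, against 0.37 and 0.46 in young pools (-1.33 ± 0.36, adjusted p = 0.322), opposite in sign to Rrm1 and Rrm2. Orc4 stood at 0.48 and 0.57 in aged pools, against -0.50 and -0.73 in young pools (1.14 ± 0.36), with the sign of Orc5 (0.72) and Orc6 (0.29), while Orc1, Orc2 and Orc3 (-0.05) were below 0. Gins4 differed by -1.41 ± 0.47, while Gins1, Gins2 and Gins3 (0.16) were above 0. Of the accessory subunits of the lagging strand polymerase, Pold2 (-0.55) and Pold3 (-0.48) had the sign of Pold1 and Pold4 (1.11) did not. Orc3, Orc5, Gins3 and Pold2 to Pold4 were named after their values were seen. Hus1, part of a checkpoint clamp, differed by -1.80 ± 0.54, and Wdhd1, which ties polymerase to helicase, by -1.18 ± 0.38.

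Of 16 other E2F, RB and cyclin-dependent kinase genes, 10 were lower in aged cells, against 46.2% of all genes, with a median of -0.24. At an unadjusted p under 0.05 there were 3 lower (6.19% of all genes) and 0 higher (2.85% of all genes) with limma. These were the repressor E2f6 (-1.19 ± 0.36), the activator E2f3 (-1.35 ± 0.46) and the dimer partner Tfdp2 (-1.24 ± 0.42), with adjusted p-values of 0.383 to 0.449 in limma. E2f3 stood at -1.35 and -0.40 in aged pools, against 0.56 and 0.40 in young pools, so it and E2f2 were both without overlap. The RB family member Rbl2 differed by -1.04 ± 0.54.

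Of 24 measured genes of G2 and mitosis (25 listed), 20 were higher in aged cells, against 53.8% of all genes, with a median of 0.25, and at an unadjusted p under 0.05 there were 0 with limma (2.85% of all genes higher and 6.19% lower). The 4 with the lowest p were Ube2c, which serves the anaphase promoting complex (0.78 ± 0.37), the spindle checkpoint kinase Bub1b (0.55 ± 0.37), Kif23 (0.48 ± 0.37) and Ndc80 (0.52 ± 0.42). Mki67, the common marker of cycling cells, stood at 1.41 and -0.94 in aged pools, against 0.29 and -0.29 in young pools (0.23 ± 0.81), and Top2a differed by 0.24 ± 0.49, both with overlap. Of the 7 inhibitors of cyclin-dependent kinases 3 were higher (53.8% of all genes), with a median of -0.09. Cdkn1a (p21) stood at -0.25 and -0.47 in aged pools, against 0.05 and 0.15 in young pools (-0.46 ± 0.36).

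**Figure D4:**
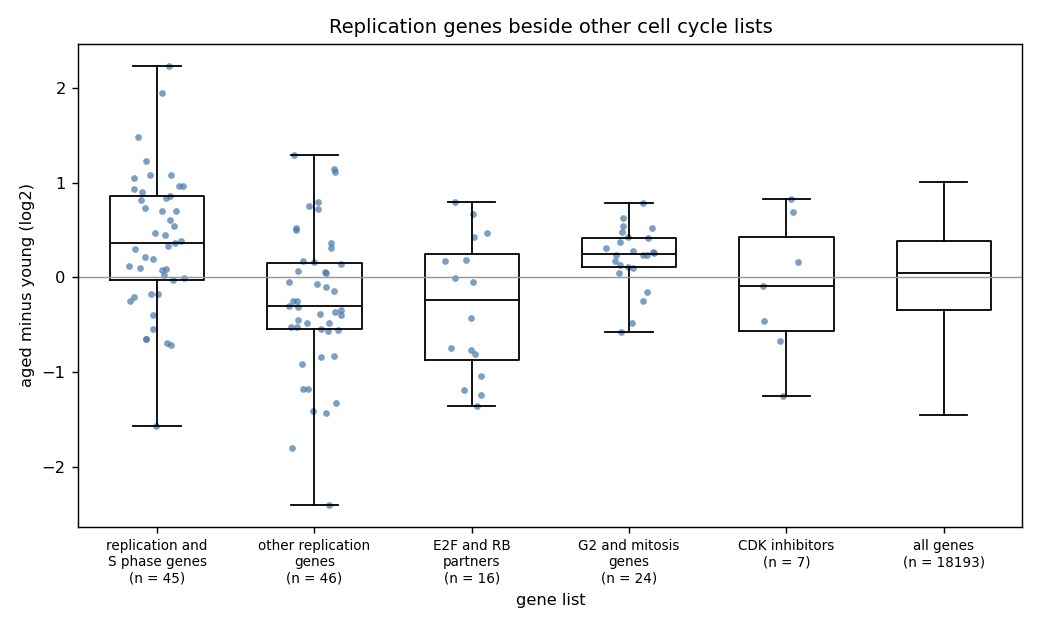
Aged minus young difference on the log2 scale (y axis) of each gene in the replication set and in 4 other cell cycle lists, beside all genes; boxes give median and quartiles, whiskers the full range of a list and the 5th to 95th percentile of all genes, and dots are genes. The medians are 0.36 for the replication set, -0.31 for other replication genes, -0.24 for E2F and RB partners, 0.25 for G2 and mitosis genes, -0.09 for the inhibitors and 0.05 for all genes.

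Cell type marker lists differed between the ages as well. Of those measured, muscle fibre markers were lower in 22 of 22 cases, with list means of -1.67 to -1.43 in aged pools, against 1.39 to 1.45 in young pools. T cell markers were higher in 10 of 10 (means 0.61 to 1.16 in aged, -0.93 to -0.56 in young pools), B cell markers in 6 of 7, pericyte markers in 10 of 10 (0.42 to 0.96 in aged, -0.69 to -0.30 in young pools), fibro-adipogenic markers in 10 of 11 and Schwann cell markers in 5 of 5. Macrophage markers were lower in 9 of 13 (-0.61 to -0.35 in aged, 0.28 to 0.32 in young pools). Granulocyte markers were lower in 6 of 8 and endothelial markers in 9 of 10, while erythroid markers were higher in 2 of 4. For comparison, 53.8% of all genes were higher and 46.2% lower. Both aged pools lay below both young pools in 1 of the 10 endothelial markers (16.9% of all genes). Of 15 satellite cell markers 9 were higher, or 60.0%, against 53.8% of all genes, with a median of 0.09, and 6 were lower. Pax7 stood at 1.08 and 0.90 in aged pools, against -1.39 and -1.24 in young pools. Centred values show no marker at 0. The part of these cell types in the differences of the replication genes was not tested.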

How the data were processed

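Expression was measured on 4 Affymetrix arrays of biotin-labelled RNA after 2 rounds of linear T7 amplification, per the labels' protocols. The authors deposited a table of 45101 probe sets whose values were read as log2, with every probe set's median over the arrays at 0. Not given in the sources used here were the log base, background correction, probe summary and normalization. Array medians lay between -0.07 and 0.05. Probe sets with 1 gene symbol in the platform annotation (34945) were kept, symbols were updated by Entrez ID to GRCm38.p6 where possible (34741), and 932 with several symbols and 9160 with none were left out. A gene's value is the mean of its probe sets (18193 genes). The test of age used limma 3.58.1 under R 4.3.3 (lmFit, eBayes without trend, two-sided, 2 residual and 3.56 prior degrees of freedom, Benjamini-Hochberg over all genes, threshold 0.05), tested on simulated data. The number of arrays limits the precision, and pools are the only replicates. Figures used matplotlib 3.10.9.

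Members, lists (other replication, E2F and RB, G2 and mitosis, inhibitor and cell type marker genes) and tests were chosen with earlier results of these data known. Pool values are given for the 10 members with the smallest p-values, the D-type cyclins, Mcm2 to Mcm7, E2f1, E2f2, Pcna and the reductase subunits, with others where pools disagreed. Of another list at most 4 genes by p-value were named, plus Mki67, Top2a, Pax7 and Cdkn1a, apart from those the text gives as named after their values were seen. Alternatives were quantile normalization, median-centred arrays, other probe set choices, other variance models, a replicate block and leaving out each pool.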

Additional observations from a re-analysis of the deposited data

How the results depend on the processing

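Under all 12 alternatives 0 replication genes passed the adjusted threshold in either direction, including a fit with a variance trend on the gene mean, which called 221 of all genes. Between 31 and 35 of the 45 were higher in aged cells under every setting, against 49.7 to 58.7% of all genes. Their median difference lay between 0.28 and 0.51, beside -0.00311 to 0.13 over all genes. The members' median stood 0.31 above that of all genes in the main fit and 0.19 above it without young replicate 2. The 3 genes higher at an unadjusted p under 0.05 became 1 with the probe set of largest SD and 1 with _x_at and _s_at probe sets dropped, and numbered 2 to 5 without 1 pool (5 without aged replicate 1). Of all genes, 2.85% were higher at that threshold in the main fit and 2.46% with the probe set of largest SD. With _x_at and _s_at probe sets dropped the share was 2.83%. A fit without 1 pool leaves 1 pool of that age, so no conclusion is drawn from its count. The 1 lower gene (6.19% of all genes) became 2 with the probe set of largest SD. With each probe set on its own, 2 genes had at least 1 lower probe set at that threshold. The share of all genes lower was taken for the main fit only. The count with both aged pools above both young pools was 15 (19.9% of all genes) in the main fit. It was 10 with the probe set of largest SD (19.1%) and 16 with quantile normalization (19.2%). Without 1 pool it was 21 to 24 (32.5 to 40.8%), where fewer pools overlap by construction (24 without aged replicate 2 or young replicate 2). Taken singly, 26 of the 106 probe sets lay apart in that direction, or 24.5%, against 18.4% of all probe sets with 1 gene symbol. With the replicate number as a block, 0 genes passed. At an unadjusted p under 0.05 with limma, 2 members were then higher (3.02% of all genes) and 1 lower. Same-numbered pools deviated together with a correlation of 0.138 across genes, which are not independent, and the labels give no shared origin, so the numbers were not taken as pairs. Signs turned for Pola1 (0.0297 with quantile normalization), Rfc2 (-0.0194 with array medians subtracted, -0.34 without _x_at or _s_at probe sets), Rpa1 (-0.36 with the probe set of largest SD) and Mcm5 (0.0370 without _x_at or _s_at probe sets). The cause was not tested. Without any 1 pool 31 members kept their sign, 24 higher and 7 lower, a count that was not taken over all genes. The other 14 did not, with ranges of -0.0489 to 1.84 for Ccne2, -0.47 to 0.11 for Cdc6, -0.13 to 0.28 for E2f1, -0.64 to 0.89 for Gins1, -0.32 to 0.32 for Mcm10, -0.27 to 0.93 for Mcm3, -1.45 to 0.15 for Mcm5, -0.57 to 0.22 for Orc1, -0.92 to 1.51 for Orc6, -0.53 to 0.46 for Pola1, -0.89 to 0.94 for Rfc2, -1.20 to 1.39 for Rpa1, -1.64 to 0.34 for Rpa2 and -0.13 to 0.30 for Tk1.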
